A study of Homo sapiens with 7 samples.

Results

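ARID1A-null line 2 is 1 of 2 lines of the neuroblastoma cell line NGP labelled ARID1A-/-, and it is described here against the NGP control across the 14736 of 28517 annotated entries that averaged at least 0.5 RPKM (reads scaled by gene length and by the library's total) over the 4 libraries of both. RNA was sequenced in 75-base single-end reads. Control, null line 1 and null line 2 each have 1 library made with the SMARTer kit and 1 repeat made with the KAPA kit, and a line labelled ARID1A+/- has 1 KAPA library. All lines, the control included, were kept in medium with 0.5 ug/ml puromycin. Each genotype is a single line, so a difference between lines can hold whatever else sets 1 line apart from another. The labels give neither the position of the mutations nor whether a repeat is a separate culture, so the p-values below rest on library-to-library spread that could be purely technical.

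ARID1A is the DNA-binding subunit of BAF, a SWI/SNF complex that slides and evicts nucleosomes and keeps many enhancers open. NGP is an established, MYCN-amplified neuroblastoma line, and neuroblastoma arises from the sympathetic branch of the neural crest. Its cells are known in an adrenergic state, held by transcription factors such as HAND2 and GATA3 that bind one another's enhancers, and in a mesenchymal state with a more migratory, matrix-producing programme. The study's title asks whether loss of ARID1A moves cells from the first towards the second. A line with 2 libraries answers a narrower question, namely which genes separate it from control and which separate it from the other null line too.

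Library totals ran from 24445301 to 43644361 counts over the 7 libraries, and those of line 2 were 40724353 (SMARTer) and 28892053 (KAPA). Entries named for ribosomal RNA took 1.95% to 2.64% of counts. The sympathetic factors HAND2 and GATA3 were at 308 and 307 RPKM and at 154 and 85.7 RPKM in line 2 (values are always in the order SMARTer, KAPA), whereas TH and DBH, enzymes of noradrenaline synthesis that define the mature lineage, were at or under 0.0544 and 0.116 RPKM. Both were low in control too, TH at 0.456 and 0.236 RPKM and DBH at 0.407 and 0.0593. In line 1 DBH was at 1.38 and 5.17 RPKM. Of markers of other cell types, PECAM1, CD3E, HBA1 and HBB had no counts in line 2, while the fibroblast list summed to 65.3 and 61.9 RPKM, led by COL1A1 (30.3 and 19.9) and THY1 (17.1 and 18.7), with FAP and COL1A2 at 0, and the immune marker CD68 was at 3.49 and 2.63 RPKM; their part in the results was not tested. The endothelial and erythroid lists summed to 0.301 and 1.09 RPKM and to 0.0115 and 0.0162 RPKM.

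ARID1A RNA itself was lower in line 2 and not absent. It was at 22.3 and 22.00 RPKM in the control libraries, 19.9 in the heterozygous library, 16.7 and 17.2 in line 1 and 14.2 and 13.8 in line 2. Both line 2 values lie below all the others. The log2 difference from control was -0.70 ± 0.11 (standard error; adjusted p = 0.0091, edgeR quasi-likelihood test with Benjamini-Hochberg adjustment), and that from line 1 was -0.33 ± 0.11 (adjusted p = 0.1). The first call was lost when either control or either line 2 library was left out (adjusted p 0.0822, 0.0566, 0.0914 and 0.102 without the SMARTer control, KAPA control, SMARTer line 2 and KAPA line 2 library). The counts do not show whether the remaining RNA can make protein.

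Against control, 829 genes rose in line 2 (5.63% of those tested) and 1289 fell (8.75%), 2118 together (14.4%). All 2118 differed in the same direction in the SMARTer pair and in the KAPA pair. With kit as a term, a gene whose pairs disagreed in sign could hardly pass, so this adds no support. The falls were also the deeper: 825 falls and 390 rises passed 1 on the log2 scale, 384 and 98 passed 2, and 134 and 18 passed 4. The median was -1.34 over the falls, 0.96 over the rises and 0.02 over all genes. The number of calls depended on the libraries in the fit: it was 470 without the SMARTer control, 824 without the KAPA control, 1078 without the SMARTer line 2 and 788 without the KAPA line 2 library. It was 3690 and 3683 without the SMARTer and the KAPA library of line 1, which enter only through the shared estimate of the spread, and 3709 in the fit of the 4 control and line 2 libraries alone, which called all 2118.

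**Figure D1:**
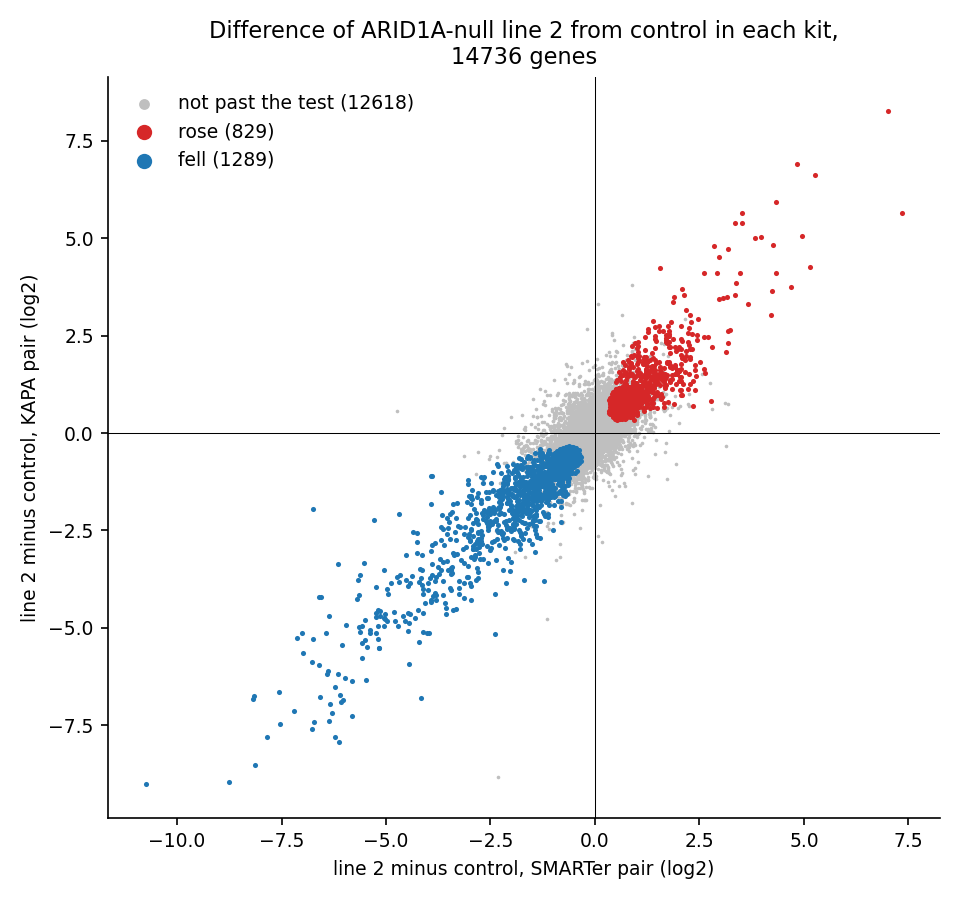
Difference of line 2 from control in the SMARTer pair (x axis) and in the KAPA pair (y axis), each as log2 of TMM-scaled CPM plus 0.1, for 14736 genes. Red points are the 829 genes that rose, blue points the 1289 that fell and grey points the genes not past the test. All coloured points lie in the quadrants where both kits have the same sign, which passing the test nearly requires. The blue cloud reaches farther from 0 than the red.

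The test that bears on what is particular to line 2 is its difference from null line 1. There 1076 genes were higher in line 2 (7.3%) and 798 lower (5.42%), 1874 together (12.7%). Both tests were passed in the same direction by 314 genes that were higher (2.13%) and 427 that were lower (2.9%) in line 2. In 289 and 402 of these the 2 line 2 libraries lay outside all 4 of control and line 1. Passing both tests favours such separation, so it adds no support. The 2 contrasts share the line 2 libraries, so the counts are a description. Without the SMARTer control, KAPA control, SMARTer line 2 and KAPA line 2 library in turn, 54, 93, 117 and 74 genes were higher than both groups and 140, 226, 226 and 174 lower. Of the 829 rises, 505 did not pass the test against line 1, and of the 1289 falls, 787 did not.

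Some genes were near 0 in line 2 and expressed in control and line 1. In bulk RNA, fewer cells with a transcript and less of it per cell cannot be told apart. By a rule set after the values were seen, 75 entries had at most 10 counts in the 2 line 2 libraries together and at least 100 counts and a mean of 1 RPKM in control. In 35 of them line 1 also had at most 10 counts, in 20 it lay between, and in 20 it had at least 100. Those 20 include 11 genes with ordinary symbols: BTBD17, CPXM1, CSAG1, EFS, HSPA2, MAGEA12, S100A11, SIMC1, TMEM119, TRIM21 and TXLNB. In 7 of the 20 the heterozygous library also had at most 10 counts. Some loci hold several entries, as SIMC1 and C5orf25 do. No RPKM level was asked of line 1, where BTBD17 was at 0.979 and 0.972 RPKM and TXLNB at 0.799 and 0.971. The reverse, at least 100 counts in line 2 and at most 10 in control, held for 5 entries, of which NTS alone was also at most 10 in line 1 and in the heterozygous line.

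The 250 bases before the RefSeq transcription start are shown for 4 genes that were low in line 2 against control and line 1 and for 2 that were high, as examples of both directions. They are written 5′ to 3′ on the gene's strand, with CG dinucleotides, the sites of DNA methylation, in capitals (RefSeq, GRCh38.p14). The positions are chr11:4393703-4393952, minus strand for TRIM21; chr14:23365173-23365422, minus strand for EFS; chr14:64540491-64540740, plus strand for HSPA2; chrX:47582186-47582435, plus strand for TIMP1; chr12:85874045-85874294, plus strand for NTS; and chr1:4654359-4654608, plus strand for AJAP1. All 6 windows lie upstream of the annotated transcript.
TRIM21: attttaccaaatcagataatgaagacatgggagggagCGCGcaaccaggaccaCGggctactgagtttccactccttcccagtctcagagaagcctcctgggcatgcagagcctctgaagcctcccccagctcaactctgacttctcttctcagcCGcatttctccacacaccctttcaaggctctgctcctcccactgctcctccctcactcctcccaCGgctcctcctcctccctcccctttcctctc
EFS: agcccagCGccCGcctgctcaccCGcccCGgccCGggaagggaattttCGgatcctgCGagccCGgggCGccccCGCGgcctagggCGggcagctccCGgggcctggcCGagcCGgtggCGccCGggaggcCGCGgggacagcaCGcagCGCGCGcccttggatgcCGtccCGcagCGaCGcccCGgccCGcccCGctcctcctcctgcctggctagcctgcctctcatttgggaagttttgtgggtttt
HSPA2: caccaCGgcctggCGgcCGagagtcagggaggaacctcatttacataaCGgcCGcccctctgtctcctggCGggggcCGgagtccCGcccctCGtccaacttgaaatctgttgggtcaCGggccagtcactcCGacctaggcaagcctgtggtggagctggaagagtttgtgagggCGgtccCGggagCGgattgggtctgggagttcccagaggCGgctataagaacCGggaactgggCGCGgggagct
TIMP1: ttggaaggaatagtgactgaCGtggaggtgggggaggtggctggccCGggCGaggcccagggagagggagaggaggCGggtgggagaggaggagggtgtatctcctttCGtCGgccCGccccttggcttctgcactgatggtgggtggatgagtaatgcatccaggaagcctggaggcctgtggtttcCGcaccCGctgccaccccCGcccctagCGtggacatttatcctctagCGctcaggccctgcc
NTS: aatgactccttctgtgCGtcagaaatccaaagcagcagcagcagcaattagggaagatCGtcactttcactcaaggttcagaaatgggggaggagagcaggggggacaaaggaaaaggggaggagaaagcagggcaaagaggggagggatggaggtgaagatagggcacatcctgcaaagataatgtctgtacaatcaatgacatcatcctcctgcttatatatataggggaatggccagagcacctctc
AJAP1: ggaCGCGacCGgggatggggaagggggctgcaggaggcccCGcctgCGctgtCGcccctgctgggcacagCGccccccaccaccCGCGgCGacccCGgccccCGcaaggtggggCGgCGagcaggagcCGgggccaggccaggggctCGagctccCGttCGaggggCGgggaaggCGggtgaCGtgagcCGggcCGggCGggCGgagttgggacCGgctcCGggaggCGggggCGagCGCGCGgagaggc
The windows differ widely in their CG number. There are 5 CGs before TRIM21, 30 before EFS, 18 before HSPA2, 12 before TIMP1, 2 before NTS and 32 before AJAP1, against a median of 11 over the 27305 genes of the table and of 21 over the tested genes found in it. Among the promoters shown, low and high CG numbers occur in both directions. The AP-1 motif TGANTCA, which reads the same on both strands and occurs in 6.6% of all such windows, is in none of the 6. The CRE-like motif TGANNTCA, also the same on both strands (10.4% of windows), occurs once before NTS. TATAA, searched on both strands (19.6%), occurs once before HSPA2 and once before NTS. A match is only a match of letters. Only 64.5% of the tested genes and 52.0% of the 75 near 0 in line 2 have an entry in the table, too few for a comparison of CG number between groups of genes, which is therefore void.

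TRIM21, a ubiquitin ligase that binds antibodies inside cells, was at 11.5 and 7.25 RPKM in control, 11.7 and 17.5 in line 1 and 0.0127 and 0.0179 in line 2. Its counts in line 2 were 1 and 1. Among the other libraries only the heterozygous one was as low, with 0 counts. The fall was 691-fold (95% interval 191 to 5714) against control and 987-fold (95% interval 273 to 8158) against line 1, with intervals that, like those below, are exact binomial and cover counting error only (adjusted p = 0.00042 and 0.00038). EFS, a docking protein of SRC-family kinase signalling, had 1449 and 553 counts in control, 1454 and 901 in line 1, 1682 in the heterozygous library and 1 and 3 in line 2. It was thus near 0 in line 2 alone, 530-fold (95% interval 207 to 1947) below control and 580-fold (95% interval 226 to 2130) below line 1 (adjusted p = 0.00021 and 0.00024).

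HSPA2, a heat shock protein of the HSP70 family, was at 3.62 and 4.91 RPKM in control, 3.07 and 4.23 in line 1 and 2.47 in the heterozygous library, against 0.0519 and 0.0244 in line 2. The secreted metalloproteinase inhibitor TIMP1 was at 5.57 and 4.36 RPKM in control, 9.65 and 7.499 in line 1 and 0.01205 and 0.187 in line 2. Neither gene overlapped between line 2 and the rest. HSPA2 was 104-fold (95% interval 52.8 to 243) and TIMP1 62.8-fold (95% interval 35.7 to 122) below control (adjusted p = 0.00035 and 0.0029). Against line 1 the ratios were 91.6-fold (95% interval 46.2 to 213) and 107-fold (95% interval 60.9 to 207) (adjusted p = 0.00039 and 0.0025).

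CPXM1, a carboxypeptidase-like secreted protein, was at 9.14 and 4.24 RPKM in control, 7.45 and 6.15 in line 1 and 0.0716 and 0.0144 in line 2. The heterozygous library held 27.9 RPKM, the highest value of the 7. TMEM119, a membrane protein best known from bone and microglia, was at 3.18 and 1.54 RPKM in control, 2.75 and 2.15 in line 1 and 0.0182 and 0.0128 in line 2. Both separate line 2 from every other library, at 160-fold (95% interval 80.7 to 370) and 168-fold (95% interval 57.2 to 819) below control (adjusted p = 0.00039 and 0.00047). SIMC1, a SUMO-binding protein whose older name C5orf25 is a second entry of the same locus, fell from 3.13 and 2.49 to 0.00603 and 0.01701 RPKM (adjusted p = 0.00032; 3.37 and 4.095 RPKM in line 1, adjusted p = 0.00029 for the difference). TXLNB and the X-linked CSAG1 had no count in line 2: they were at least 217-fold and at least 181-fold lower than control, taking a floor of 3 counts over the group (adjusted p = 0.0037 and 0.0031).

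HSD17B12, a ketoreductase of long-chain fatty acid elongation that most cells express, was among the genes that kept some counts. It was at 9.01 and 11.3 RPKM in control, 9.25 and 9.09 in line 1, 14.3 in the heterozygous library and 0.115 and 0.0648 in line 2. The log2 differences were -6.78 ± 0.28 from control and -6.65 ± 0.28 from line 1 (adjusted p = 0.00021 and 0.00024). FGF13, an intracellular FGF homologue that binds sodium channels, was at 19.5 and 12.5 RPKM in control, 5.28 and 8.62 in line 1 and 0.0425 and 0.0799 in line 2. Line 1 sat lower than control (adjusted p = 0.049) and line 2 far below both, by -8.12 ± 0.49 and -6.90 ± 0.48 (adjusted p = 0.0004 and 0.00081). The selenium transport protein SEPP1, whose locus overlaps CCDC152 so that reads of the pair may be shared, differed by -5.50 ± 0.38 from control (adjusted p = 0.00063).

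Among the genes that were high only in line 2, NTS, the precursor of the neuropeptide neurotensin, had 806 and 268 counts in line 2 (15.97 and 7.49 RPKM) against 1 and 2 in control, 2 and 0 in line 1 and 0 in the heterozygous library. It was 338-fold (95% interval 115 to 1642) above control and 545-fold (95% interval 151 to 4508) above line 1 (adjusted p = 0.00063 and 0.00073). AJAP1, a junction protein that binds E-cadherin complexes, was at 2.84 and 2.62 RPKM in line 2, 0.145 and 0.0493 in control and 0.0218 and 0.0284 in line 1. NTS and AJAP1 were thus transcribed at a clear level in line 2 and hardly at all in the other 5 libraries. AJAP1 differed by 4.70 ± 0.41 from control and by 108-fold (95% interval 49.1 to 294) from line 1 (adjusted p = 0.0012 and 0.00095).

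NLRP2, an innate immune sensor family member, and HS3ST4, a heparan sulphate sulphotransferase, moved in opposite directions in the 2 null lines. NLRP2 was at 0.393 and 0.535 RPKM in control, 8.89 and 9.65 in line 2 and 0.0132 and 0.0171 in line 1, and HS3ST4 at 0.222 and 0.307, 6.78 and 4.57 and 0.0151 and 0.009798 RPKM. Line 2 rose by 4.30 ± 0.21 and 4.40 ± 0.32 on the log2 scale (adjusted p = 0.00024 and 0.00071), whereas line 1 had 2 and 2 and 2 and 1 counts. The gap junction subunit GJA3 was at 1.23 and 4.38 RPKM in line 2 against 0.04402 and 0.134 in control (4.88 ± 0.39, adjusted p = 0.00088). The co-chaperone DNAJC15 was at 9.597 and 6.18 RPKM against 0.264 and 0.147 (5.33 ± 0.72, adjusted p = 0.0055), a call lost without the SMARTer control library. Against line 1 both were higher too, by 4.30 ± 0.37 and 5.68 ± 0.73 (adjusted p = 0.0017 and 0.0056).

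**Figure D2:**
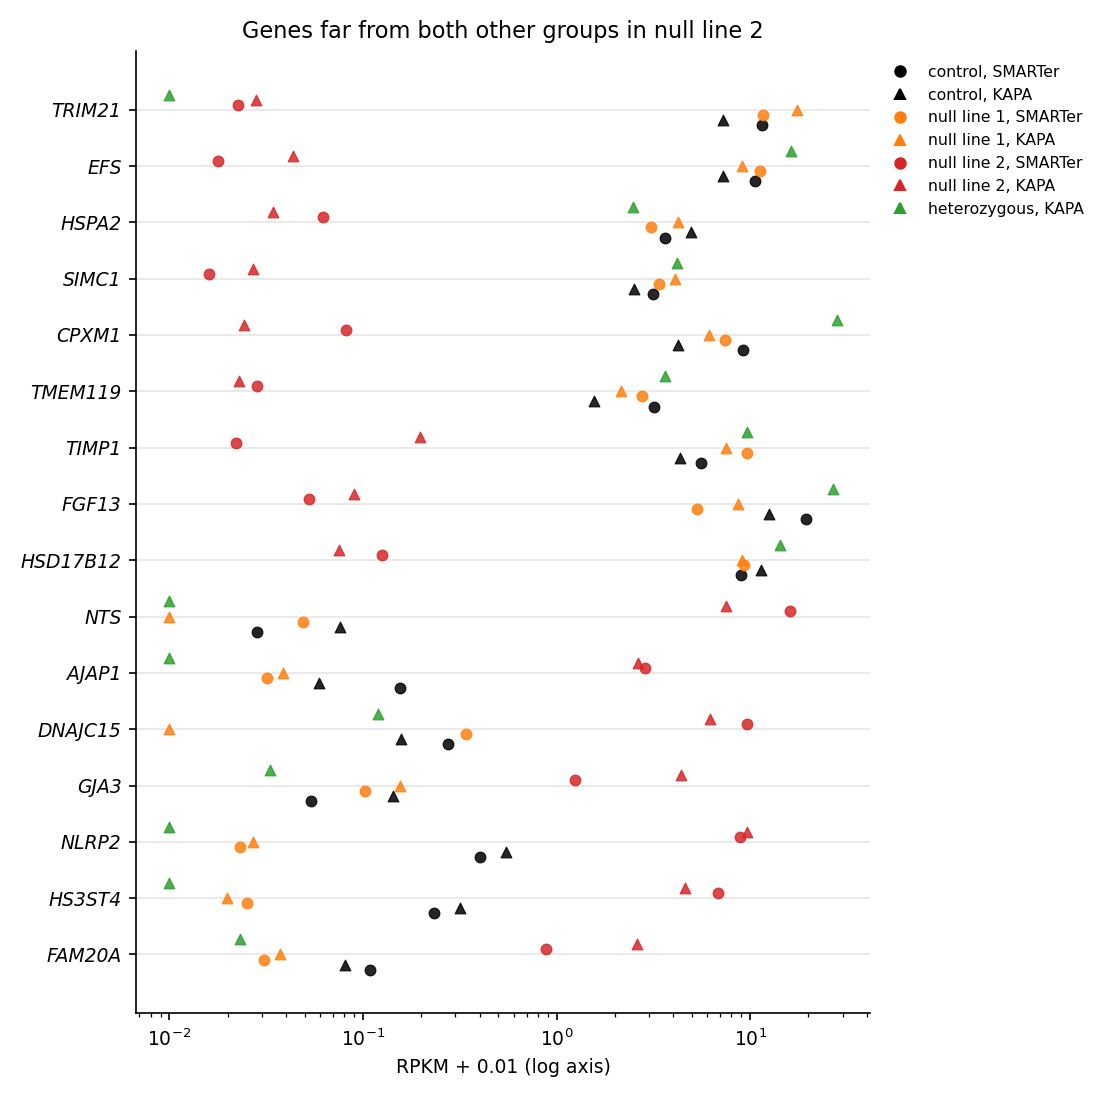
RPKM plus 0.01 on a log axis for 16 genes in 7 libraries; circles are SMARTer and triangles KAPA libraries, black control, orange null line 1, red null line 2 and green the heterozygous line. In the upper 9 genes the red points lie left of control and line 1 (TRIM21 at 0.0127 and 0.0179 RPKM), with the heterozygous library equally low for TRIM21; in the lower 7 they lie right of all other points (NTS at 15.97 and 7.49 RPKM).

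Several of the other large falls were seen in line 1 too. NEUROD1, a neurogenic basic helix-loop-helix factor, had 6968 and 1772 counts in control and 0 and 1 in line 2, and also 1 and 6 in line 1. MFNG, a glycosyltransferase that modifies Notch, and OCIAD2 had no count in line 2, at least 735-fold and at least 533-fold lower than control, and 3 and 0 and 0 and 0 counts in line 1. The lipase LPL and the cancer-testis antigen MAGEA4 were likewise without a count in both null lines. For NEUROD1, MFNG, OCIAD2, LPL and MAGEA4 the adjusted p against control was 0.00029, 0.00067, 0.00079, 0.0012 and 0.0014. ADCYAP1, the precursor of the neuropeptide PACAP, was the largest rise after NTS: it was at 0.136 and 0.0242 RPKM in control, 22.3 and 17.3 in line 2 and 13.1 and 1.58 in line 1 (8.22 ± 0.87, adjusted p = 0.0023; against line 1 2.00 ± 0.60, adjusted p = 0.08). COL14A1, a fibril-associated collagen, and MYOCD, the co-activator of smooth muscle genes, had 167 and 367 and 226 and 301 counts in line 2, 2 and 0 and 2 and 0 in control and 6 and 13 and 21 and 11 in line 1. Line 2 was higher than both (adjusted p against control = 0.00096 and 0.0013, against line 1 = 0.0022 and 0.0044).

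Among abundant genes, with a mean of at least 50 RPKM in control or line 2, the largest rise was that of IGFBP3, a secreted binding protein of insulin-like growth factors. It was at 5.13 and 1.27 RPKM in control, 16.7 and 17.2 in line 1, 23.6 in the heterozygous library and 62.4 and 55.4 in line 2. The order control, line 1, line 2 held in both kits, and line 2 differed by 4.26 ± 0.47 from control and by 1.74 ± 0.41 from line 1 (adjusted p = 0.0027 and 0.04). The same order was seen for PARP4, an ADP-ribosyltransferase of vault particles, at 9.13 and 14.6, 24.4 and 40.3 and 63.1 and 81.1 RPKM, and for the alpha-2A adrenergic receptor ADRA2A, at 10.95 and 8.95, 29.8 and 18.3 and 57.6 and 52.1 RPKM. Both rose in line 2 (2.60 ± 0.13 and 2.44 ± 0.18; adjusted p = 0.00025 and 0.00071) and exceeded line 1 (1.14 ± 0.12 and 1.17 ± 0.17; adjusted p = 0.0032 and 0.0083). The desmosomal cadherin DSC2 and the GDNF-family receptor GFRA2 rose by 2.18 ± 0.19 and 1.80 ± 0.32 (adjusted p = 0.0012 and 0.015) without passing the test against line 1 (adjusted p = 0.065 and 0.3), and the GFRA2 call was lost without the SMARTer control or the KAPA line 2 library.

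The falls of abundant genes separate the lines further. PMP22, a myelin protein, was at 66.2 and 43.8 RPKM in control, 9.93 and 8.67 in line 2 and 252 and 182 in line 1. Line 2 was lowest and line 1 highest, with -2.57 ± 0.15 from control and -4.58 ± 0.17 from line 1 (adjusted p = 0.0004 and 0.00022). IGFBP4, which binds insulin-like growth factors as IGFBP3 does, was at 46.3 and 55.8 RPKM in control, 10.97 and 19.8 in line 2 and 96.8 and 107 in line 1 (-1.81 ± 0.20, adjusted p = 0.0028). ICA1, a protein of secretory vesicle membranes, was lower in line 2 (26.7 and 14.03 RPKM) than in control (76.1 and 58.8) and line 1 (57.3 and 69.7), with -1.80 ± 0.25 and -1.76 ± 0.25 (adjusted p = 0.006 and 0.0078); the first call was lost without the SMARTer control. COTL1, an actin-binding protein, and FAM49A fell as well (-2.21 ± 0.32 and -1.91 ± 0.24, adjusted p = 0.0071 and 0.0044) but did not pass against line 1 (adjusted p = 0.6 and 0.17).

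**Figure D3:**
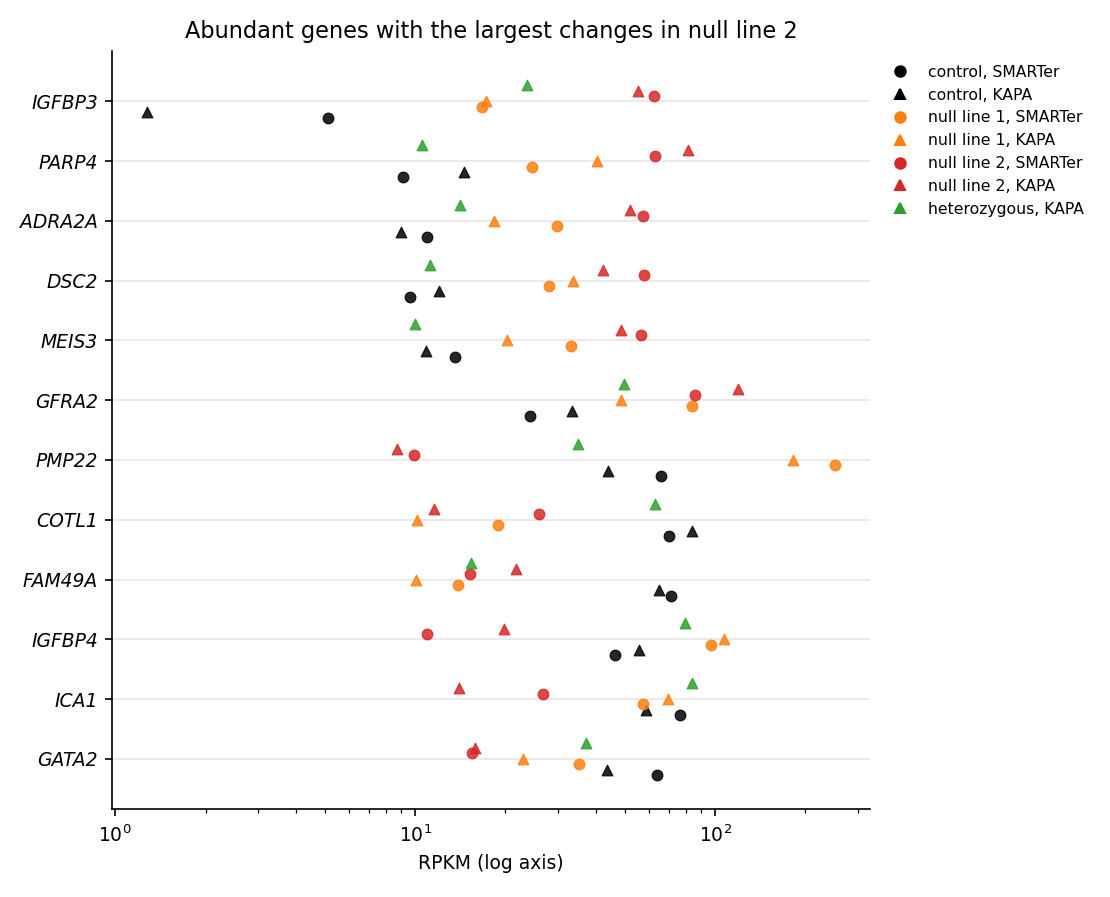
RPKM on a log axis of the 12 abundant genes with the largest changes in line 2, in 7 libraries; symbols and colours as in the plot of switched genes. In the upper 6 genes the red points of line 2 lie right of the black control points (IGFBP3 at 62.4 and 55.4 against 5.13 and 1.27 RPKM), in the lower 6 left of them, and for PMP22 and IGFBP4 the orange points of line 1 lie on the far side of control.

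Of the 27 adrenergic transcription factors listed, all were tested; 4 rose and 9 fell (median -0.41), against 5.63% and 8.75% of all genes. HAND2 and GATA3, which anchor the adrenergic circuit, did not pass the test (-0.16 ± 0.13 and 0.15 ± 0.13; adjusted p = 0.46 and 0.48). GATA2 was at 64.1 and 43.5 RPKM in control, 35.1 and 22.9 in line 1 and 15.5 and 15.9 in line 2, the lowest of the 3 groups in both kits. It differed by -1.77 ± 0.20 from control and by -0.90 ± 0.19 from line 1 (adjusted p = 0.0027 and 0.029). EYA1, a phosphatase and co-activator of developmental homeobox factors, and LMO1, a LIM-domain co-factor, were below control (-1.09 ± 0.15 and -1.16 ± 0.24; adjusted p = 0.0065 and 0.024) and farther below line 1 (-2.93 ± 0.16 and -1.87 ± 0.24; adjusted p = 0.00036 and 0.0056). The EYA1 call against control was lost without either KAPA library of control and line 2, and the LMO1 call without either control or the KAPA line 2 library. PHOX2A, a homeodomain factor of noradrenergic neurons, was at 307 and 131 RPKM in control, 349 and 220 in line 1 and 437 and 231 in line 2 (0.62 ± 0.16, adjusted p = 0.045; lost without the SMARTer control, SMARTer line 2, KAPA control or KAPA line 2 library). TCF4, KLF7 and SOX4 rose, by 0.89, 0.95 and 0.81 on the log2 scale (adjusted p = 0.0037, 0.0071 and 0.036). TCF4 was lost without the SMARTer control, KLF7 without either control or the SMARTer line 2 library and SOX4 without any 1 of the 4. Against line 1, 7 of the 27 were lower, as were 5.42% of all genes. Without the SMARTer control, KAPA control, SMARTer line 2 and KAPA line 2 library, 3, 5, 7 and 2 members fell and 0, 1, 1 and 2 rose.

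Mesenchymal factors gave no common direction. Of 28 listed, 17 were tested, 2 rose and 3 fell (5.63% and 8.75% of all genes did), with a median of -0.27. Without the SMARTer control, KAPA control, SMARTer line 2 and KAPA line 2 library, an order kept for all such counts below, 1, 1, 3 and 1 rose and 0, 1, 3 and 1 fell. The risers were ZFP36L1, an RNA-binding protein counted with this list, at 0.477 and 0.281 RPKM in control and 4.09 and 6.97 in line 2 (3.84 ± 0.46, adjusted p = 0.0032), and the EMT repressor SNAI2 (1.72 ± 0.41, adjusted p = 0.039). Its relative SNAI1 went the other way: it was at 20.7 and 17.9 RPKM in control, 15.8 and 22.2 in line 1 and 8.06 and 3.37 in line 2, the lowest of the 7 libraries in line 2. SNAI1 fell against both (-1.83 ± 0.36 and -1.85 ± 0.36; adjusted p = 0.02 and 0.021). The calls of SNAI1 and SNAI2 were lost without either control or the KAPA line 2 library. The T-box factor TBX18 and the interferon regulator IRF3 fell by 1.75 and 0.70 on the log2 scale (adjusted p = 0.0047 and 0.028), calls lost without the SMARTer control and, for IRF3, without any 1 of the 4 libraries.

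Neurogenic and homeobox factors were called in both directions. Of 26 tested, 4 rose and 6 fell against control, where 5.63% and 8.75% of all genes did. Against line 1, 8 were higher and 2 lower (median 0.39), where 7.3% and 5.42% of all genes were. Leaving out each library gave 2, 4, 3 and 4 rises and 2, 4, 4 and 4 falls. The 3 MEIS genes, TALE homeobox partners of PBX and HOX proteins, all rose. MEIS2 was at 49.6 and 42.7 RPKM in control, 67.9 and 66.9 in line 1 and 98.2 and 97.7 in line 2, MEIS1 at 9.27 and 11.1, 7.38 and 7.63 and 19.7 and 18.4, and MEIS3 at 13.6 and 10.8, 32.99 and 20.2 and 56.4 and 48.6. Line 2 was highest for each. The rises were 0.87 ± 0.13, 1.05 ± 0.13 and 2.08 ± 0.16 for MEIS1, MEIS2 and MEIS3 (adjusted p = 0.0071, 0.0032 and 0.00085), and against line 1 the adjusted p was 0.0023, 0.048 and 0.013; the MEIS1 call was lost without either SMARTer library. ZIC2, a zinc-finger factor of neural development, differed by -2.61 ± 0.46 from control and by -2.56 ± 0.46 from line 1 (adjusted p = 0.015 and 0.017; the first was lost without the SMARTer control or either line 2 library).

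Matrix genes changed in both directions. Of 42 laminins, glycoproteins and proteoglycans, 7 rose and 14 fell (median -0.43), where 5.63% and 8.75% of all genes did. Against line 1, 3 were higher and 12 lower, where 7.3% and 5.42% of all genes were. Fibronectin, FN1, was at 3.01 and 5.27 RPKM in control and 28.2 and 59.4 in line 2, and the hyaluronan synthase HAS2 at 0.203 and 0.575 and 4.56 and 7.57 RPKM. FN1 and HAS2 rose in line 2 by 3.33 ± 0.16 and 4.06 ± 0.25 (adjusted p = 0.00024 and 0.00046), to levels not separated from line 1 (adjusted p = 0.1 and 0.18). The collagen cross-linking enzyme LOX fell with line 1, from 17.9 and 17.3 to 0.4296 and 0.479 RPKM (-5.32 ± 0.23, adjusted p = 0.00021; 0.273 and 0.469 RPKM in line 1). LOXL1, of the same family, was at 23.4 and 5.75 RPKM in control, 6.22 and 2.68 in line 1 and 0.187 and 0.103 in line 2. LOXL1 was thus low in line 2 and intermediate in line 1, with -6.59 ± 0.35 and -5.07 ± 0.35 (adjusted p = 0.00032 and 0.00078). With each library left out in turn, 8, 13, 12 and 13 members of the list fell.

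Of 17 collagen genes tested, 2 rose, COL14A1 and COL11A1 (the latter lost without the SMARTer line 2, KAPA control or KAPA line 2 library), and 2 fell. COL16A1, a fibril-associated collagen, was at 15.2 and 5.12 RPKM in control, 0.303 and 0.215 in line 1 and 0.0698 and 0.0116 in line 2 (-7.91 ± 0.39, adjusted p = 0.00025; against line 1 -2.76 ± 0.44, adjusted p = 0.011). COL1A1, a chain of type I collagen, was at 60.2 and 62.6 RPKM in control, 30.3 and 19.9 in line 2 and 156 and 171 in line 1. Line 2 fell (-1.34 ± 0.18, adjusted p = 0.0057) where line 1 was higher than control. The partner chain COL1A2 had no count in line 2 and at most 0.0336 RPKM in any library. Of 9 fibroblast markers, 7 were tested, 2 rose (DCN and LUM) and 2 fell (COL1A1 and PDGFRB). Beside the collagen and fibroblast counts, 5.63% of all genes rose and 8.75% fell. The summed level of the fibroblast markers was 100 and 101 RPKM in control and 65.3 and 61.9 in line 2. The proteoglycan DCN was at 0.301 and 0.0326 RPKM in control and 4.02 and 3.74 in line 2 (4.53 ± 0.55, adjusted p = 0.0035).

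Among intermediate filament, S100, annexin and galectin genes, 3 of 27 rose and 5 fell (2, 2, 5 and 2 rises, and 3, 3, 3 and 4 falls, without each library), and 7 were lower than in line 1. Over all genes, 5.63% rose, 8.75% fell and 5.42% were lower than in line 1. S100A11, a calcium-binding protein of migrating cells, was at 1.93 and 10.8 RPKM in control, 5.25 and 23.8 in line 1, 0 in the heterozygous library and 0.0413 and 0.291 in line 2. It was near 0 in line 2 (-5.21 ± 0.40, adjusted p = 0.00076) and above control in line 1. ANXA11, an annexin that tethers RNA granules to lysosomes, was at 4.69 and 2.84 RPKM in control, 3.23 and 2.16 in line 1 and 0.633 and 0.3604 in line 2 (-2.96 ± 0.21 and, against line 1, -2.51 ± 0.20; adjusted p = 0.00062 and 0.0013). The tetraspanin CD9 rose from 0.09897 and 0.442 to 5.18 and 9.31 RPKM (4.86 ± 0.49, adjusted p = 0.002). It exceeded the 1.58 and 1.56 RPKM of line 1 (2.05 ± 0.40, adjusted p = 0.021). NES, the intermediate filament nestin of neural progenitors, was at 19.8 and 20.2 RPKM in control, 20.2 and 32.2 in line 1 and 5.74 and 8.44 in line 2, lower than in both (-1.57 ± 0.18 and -1.93 ± 0.18; adjusted p = 0.0029 and 0.002).

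Among all genes 8.75% fell and 5.63% rose. Of 25 tested Notch genes 10 fell. Of 57 tested genes of axon guidance, 18 fell and 2 rose, of 36 Wnt genes 14 and 2, and of 26 receptor tyrosine kinase and neurotrophin receptor genes 11 and 2. The medians of the guidance, Wnt, Notch and receptor lists were -0.19, -0.28, -0.35 and -0.62, against 0.02 over all genes. In the same order of lists, 6, 5, 4 and 2 were lower than in line 1 and 4, 2, 4 and 6 higher. Over all genes 5.42% were lower and 7.3% higher. With each library left out in turn the falls numbered 7, 10, 12 and 13 for guidance, 0, 5, 6 and 5 for Wnt, 4, 5, 8 and 6 for Notch and 6, 8, 9 and 6 for the receptors.

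Of the guidance genes, the repellent ligand SEMA3F was at 3.95 and 4.32 RPKM in control, 0.606 and 0.5305 in line 1 and 0.272 and 0.311 in line 2, lowest in line 2 (-3.86 ± 0.26, adjusted p = 0.00058; against line 1 -1.02 ± 0.26, adjusted p = 0.047). The plexin receptor PLXND1 was at 17.2 and 13.6 RPKM in control and 2.26 and 3.15 in line 2 (-2.59 ± 0.27, adjusted p = 0.0023) and the ligand SLIT1 at 2.06 and 1.89 and 0.216 and 0.0956 (-3.72 ± 0.33, adjusted p = 0.0012). Neither was separated from line 1 (adjusted p = 0.92 and 0.39). NGFR, the p75 neurotrophin receptor, was at 40.7 and 29.8 RPKM in control, 29.95 in the heterozygous library, 2.05 and 2.72 in line 1 and 0.732 and 0.162 in line 2. It differed by -6.33 ± 0.49 from control and by -2.50 ± 0.46 from line 1 (adjusted p = 0.00079 and 0.018). The receptor FGFR2 was at 3.53 and 4.27 RPKM in control, 2.24 and 3.97 in line 1 and 0.4996 and 0.882 in line 2, low in line 2 alone (-2.59 ± 0.22 and -2.21 ± 0.22; adjusted p = 0.001 and 0.0023), and the GDNF co-receptor GFRA1 fell by 4.06 ± 0.29 (adjusted p = 0.00071), less far than in line 1 (adjusted p of the difference = 0.01).

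In the Notch list, the receptor NOTCH1 was at 1.41 and 1.35 RPKM in control, 0.225 and 0.439 in line 1 and 0.147 and 0.0865 in line 2 (-3.57 ± 0.40, adjusted p = 0.0029). The target HES4 and the bHLH factor HES6, which antagonises HES1, fell by 2.82 ± 0.27 and 1.42 ± 0.17 (adjusted p = 0.0017 and 0.0032; the latter was lost without the SMARTer control). In the Wnt list the frizzled receptor FZD1 was at 4.61 and 4.32 RPKM in control, 3.06 and 3.92 in line 1 and 1.86 and 1.88 in line 2, lower in line 2 than in both (-1.30 ± 0.18 and -0.95 ± 0.18; adjusted p = 0.0065 and 0.021; the first was lost without the SMARTer control). Of 50 TGF-beta, activin and BMP genes, 2 rose and 6 fell (0, 0, 2 and 0 rises, and 3, 5, 4 and 3 falls, without each library). These counts stand beside 5.63% of all genes that rose and 8.75% that fell. LTBP1, which stores latent TGF-beta in the matrix, was at 2.17 and 3.46 RPKM in control, 1.19 and 3.55 in line 1 and 0.247 and 0.567 in line 2 (-2.92 ± 0.27 and -2.52 ± 0.26, adjusted p = 0.0014 and 0.0028). Of 10 YAP and TEAD genes 6 fell (2, 4, 2 and 2 without each library; 8.75% of all genes fell) and only TEAD1, a DNA-binding partner of YAP, rose, from 18.4 and 24.1 to 47.3 and 58.1 RPKM (1.28 ± 0.12, adjusted p = 0.0016). ARHGEF17, also of this list, fell against control and line 1 (-1.81 ± 0.14 and -1.36 ± 0.14; adjusted p = 0.00079 and 0.0026).

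Neuronal lists had members in both directions. Of 42 genes of the neuronal cytoskeleton and synapse 6 rose and 4 fell, of 47 voltage-gated channel genes 6 and 7, and of 43 neurotransmitter receptor genes 7 and 8, where 5.63% and 8.75% of all genes did. Without each library the rises were 1, 4, 2 and 3 for the cytoskeleton and synapse, 2, 4, 3 and 4 for the channels and 3, 5, 6 and 5 for the receptors, and the falls 2, 2, 2 and 3, 2, 5, 5 and 4 and 5, 6, 5 and 4. SYT1, the calcium sensor of synaptic vesicle release, was at 17.1 and 23.2 RPKM in control, 22.4 and 18.8 in line 1 and 50.04 and 47.9 in line 2. It was high in line 2 alone (1.25 ± 0.18 and 1.19 ± 0.18; adjusted p = 0.0068 and 0.009; the first was lost without the SMARTer control). DRD2, a dopamine receptor, was at 2.299 and 1.66 RPKM in control, 1.31 and 1.33 in line 1 and 0.201 and 0.127 in line 2, low in line 2 alone (-3.62 ± 0.30 and -3.06 ± 0.30; adjusted p = 0.001 and 0.0023).

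In the catecholamine list, 3 of 14 tested genes rose and 2 fell (2, 3, 4 and 3 rises, and 0, 2, 2 and 1 falls, without each library). MAOA, the monoamine-degrading oxidase, was at 2.74 and 3.21 RPKM in control, 8.04 and 8.41 in line 1 and 13.7 and 21.1 in line 2, highest in line 2 (2.49 ± 0.19 and 1.00 ± 0.18; adjusted p = 0.00073 and 0.016). The noradrenaline transporter SLC6A2 was at 4.05 and 3.66, 23.2 and 39.7 and 17.1 and 17.01 RPKM in the same order, higher than control (2.098 ± 0.22, adjusted p = 0.0022) and lower than line 1 (-0.90 ± 0.21, adjusted p = 0.037). GCH1, which makes the cofactor of tyrosine hydroxylase, fell by 1.91 ± 0.22 (adjusted p = 0.0031; lost without the SMARTer control). Of 10 neuropeptide genes 3 rose (NTS, ADCYAP1 and CRH) and 2 fell (NMU and NMB). Beside the catecholamine and neuropeptide counts, 5.63% of all genes rose and 8.75% fell. NMU was at 6.21 and 11.4 RPKM in control and 0.542 and 1.61 in line 2 (-3.16 ± 0.32, adjusted p = 0.0019), above the 2 and 3 counts of line 1 (adjusted p = 0.0081).

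The list with the most rises was that of the clustered protocadherins, cell-surface recognition proteins of neurons encoded in 3 tandem arrays. Of 53 tested, 41 rose, with a median of 0.93, where 5.63% of all genes rose. None fell by edgeR, DESeq2 or limma, and none was below 0 at an unadjusted p under 0.05 (0 of 53). Their summed level was 284 and 228 RPKM in control, 458 in the heterozygous library, 480 and 396 in line 1 and 544 and 493 in line 2. All null and heterozygous libraries thus lay above both controls. Only 4 members were higher in line 2 than in line 1, near the 7.3% of all genes. Among them was PCDHGA1, at 8.58 and 6.89 RPKM in control, 15.8 and 11.5 in line 1 and 22.7 and 17.96 in line 2 (1.36 ± 0.12 and 0.53 ± 0.12, adjusted p = 0.0013 and 0.033). With each library left out in turn 22, 22, 36 and 22 members rose, and without the kit term 2 did. The genes of the alpha and of the gamma array share 3′ exons and those of the beta array are alike in sequence, so reads cannot be assigned to single members with certainty. PCDH1, outside the arrays, was high in line 2 alone, at 9.59 and 4.18 RPKM against 3.396 and 1.42 in control and 3.06 and 1.41 in line 1 (1.49 ± 0.15 and 1.56 ± 0.15; adjusted p = 0.002 and 0.0021).

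Of 80 cytosolic ribosomal protein genes tested, 42 fell (median -0.55), and their summed level was 71487 and 48436 RPKM in control, 47448 and 35640 in line 2 and 43598 and 38831 in line 1. RPS21 was at 271 and 334 RPKM in control, 138 and 176 in line 2 and 129 and 188 in line 1 (-0.98 ± 0.12, adjusted p = 0.0032). None rose by edgeR, DESeq2 or limma, and 1 of 80 was above 0 at an unadjusted p under 0.05. Against line 1, 2 were higher, and the fall was not shown to be particular to line 2. The count rested on single libraries and on the tool: 1, 6, 1 and 1 members fell without the SMARTer control, KAPA control, SMARTer line 2 and KAPA line 2 library, 72 by DESeq2 and 7 by limma after quantile normalization. Nuclear-encoded oxidative phosphorylation genes gave 9 falls among 90 (median -0.23), near the 8.75% of all genes, and 0, 1, 0 and 0 without each library.

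Genes of the ATF4 amino acid response and histone genes were called mainly against line 1. In both list sums line 1 lay on the other side of control from line 2. The ATF4 list summed to 1934 and 1776 RPKM in control, 1444 and 1511 in line 1 and 2369 and 1960 in line 2. The histone list summed to 2012 and 1992, 2389 and 2532 and 1669 and 1808 RPKM. Only 3 ATF4 members were higher in line 2 than in both groups (2.13% of all genes were), and 1 histone gene was lower (2.9%). Against control 5.63% of all genes rose and 8.75% fell. Of 48 ATF4 targets, amino acid synthesis enzymes and tRNA synthetases, 24 were higher in line 2 than in line 1 (7.3% of all genes were; median 0.54), whereas 4 rose against control (1, 0, 0 and 1 without each library). DDIT4, a stress-induced inhibitor of mTORC1, was at 48.2 and 28.6 RPKM in control, 20.8 and 27.6 in line 1 and 181 and 80.5 in line 2, highest in line 2 (1.69 ± 0.32 and 2.25 ± 0.33; adjusted p = 0.019 and 0.0089; the first was lost without the SMARTer or the KAPA control or the SMARTer line 2 library). Of 61 histone genes, 31 were lower in line 2 than in line 1 (5.42% of all genes were; median -1.17) and 1 fell against control, HIST1H2AE. It was at 6.46 and 3.92 RPKM in control, 9.12 and 12.8 in line 1 and 1.48 and 1.902 in line 2 (adjusted p = 0.033, and 0.0071 against line 1; the first was lost without the SMARTer control or either line 2 library).

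Of 29 genes of cholesterol synthesis and sterol regulation, 5 rose and 2 fell (5.63% and 8.75% of all genes did), with a median of 0.77. SREBF1, a transcription factor of lipid synthesis, was at 15.04 and 14.8 RPKM in control, 12.6 and 14.1 in line 1 and 26.2 and 26.1 in line 2, high in line 2 alone (0.77 ± 0.11 and 0.92 ± 0.11; adjusted p = 0.0071 and 0.0048). The sterol exporters ABCA1 and ABCG1 fell by 3.002 ± 0.45 and 2.45 ± 0.40 (adjusted p = 0.008 and 0.012; the ABCG1 call was lost without either control or the KAPA line 2 library). Leaving out the SMARTer control, KAPA control, SMARTer line 2 or KAPA line 2 library left 0, 14, 1 and 0 rises, and the SREBF1 call was lost each time, while the 4-library fit gave 20. In the glycolysis and hypoxia list 5 of 37 rose and 2 fell (4, 1, 4 and 3 rises, and 0, 1, 1 and 1 falls, without each library). The glycolytic enzyme ALDOC was at 59.4 and 27.7 RPKM in line 2 against 21.1 and 8.37 in control and 21.6 and 8.27 in line 1 (1.57 ± 0.15 and 1.55 ± 0.15; adjusted p = 0.0017 and 0.0022).

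HOX genes mark position along the body axis. Of 17 tested, 6 fell and 1 rose (8.75% and 5.63% of all genes did). Against line 1, 8 were lower (median -1.03), where 5.42% of all genes were. HOXA10 was at 3.47 and 3.58 RPKM in control, 0.167 and 0.482 in line 1 and 0.0462 and 0.0326 in line 2 (-6.44 ± 0.53 and -2.90 ± 0.58; adjusted p = 0.00096 and 0.023). Its neighbour HOXA9 had no count in line 2, at least 57.9-fold lower than control (adjusted p = 0.0026), and 11 and 9 in line 1. Line 2 thus had the lowest HOXA9 and HOXA10 of the 7 libraries. With each library left out in turn 3, 5, 4 and 4 HOX genes fell. Of 18 cancer-testis antigens, germ-line genes that many tumours express, 2 rose and 7 fell (1, 0, 0 and 0 rises, and 5, 6, 7 and 6 falls, without each library). MAGEA12 was at 10.7 and 17.7 RPKM in control, 8.49 in the heterozygous library, 0.684 and 4.12 in line 1 and 0.0253 and 0.0713 in line 2, 308-fold (95% interval 141 to 841) below control and 50.9-fold (95% interval 23.1 to 140) below line 1 (adjusted p = 0.00075 and 0.0049).

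RGS proteins shorten G protein signals. Of 36 RGS and G protein genes, 8 fell and 1 rose against control (5, 5, 5 and 5 falls, and 0, 0, 0 and 1 rises, without each library; 8.75% and 5.63% of all genes), and 9 were lower than in line 1. Over all genes, 5.42% were lower than in line 1. RGS3 was at 1.05 and 0.814 RPKM in control, 1.303 and 1.197 in line 1 and 0.278 and 0.185 in line 2, low in line 2 alone (-2.05 ± 0.21 and -2.50 ± 0.21, adjusted p = 0.0021 and 0.0016). Of 30 BAF and PBAF subunit genes tested, 0 rose and 3 fell (ARID1A, BCL7A and BCL11B), near the 8.75% of all genes that fell. The BCL11B call (-0.89 ± 0.23, adjusted p = 0.048 by edgeR) was lost without the SMARTer control or either line 2 library. BCL7A was at 221 and 249 RPKM in control and 152 and 174 in line 2 (-0.56 ± 0.13, adjusted p = 0.032; lost without any 1 of the 4 libraries). The drug efflux pump ABCB1 fell to 9 and 9 counts from 925 and 2501, 202-fold (95% interval 127 to 340) below control (adjusted p = 0.00063), beside 10 and 6 counts in line 1. Of 56 cell cycle genes 2 rose and 0 fell, where 5.63% and 8.75% of all genes did. The 2 were CDKN1B and CDKN2C, both inhibitors of cyclin-dependent kinases (0.79 ± 0.17 and 1.58 ± 0.36, adjusted p = 0.028 and 0.034). Each call was lost without either control or the KAPA line 2 library.

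**Figure D4:**
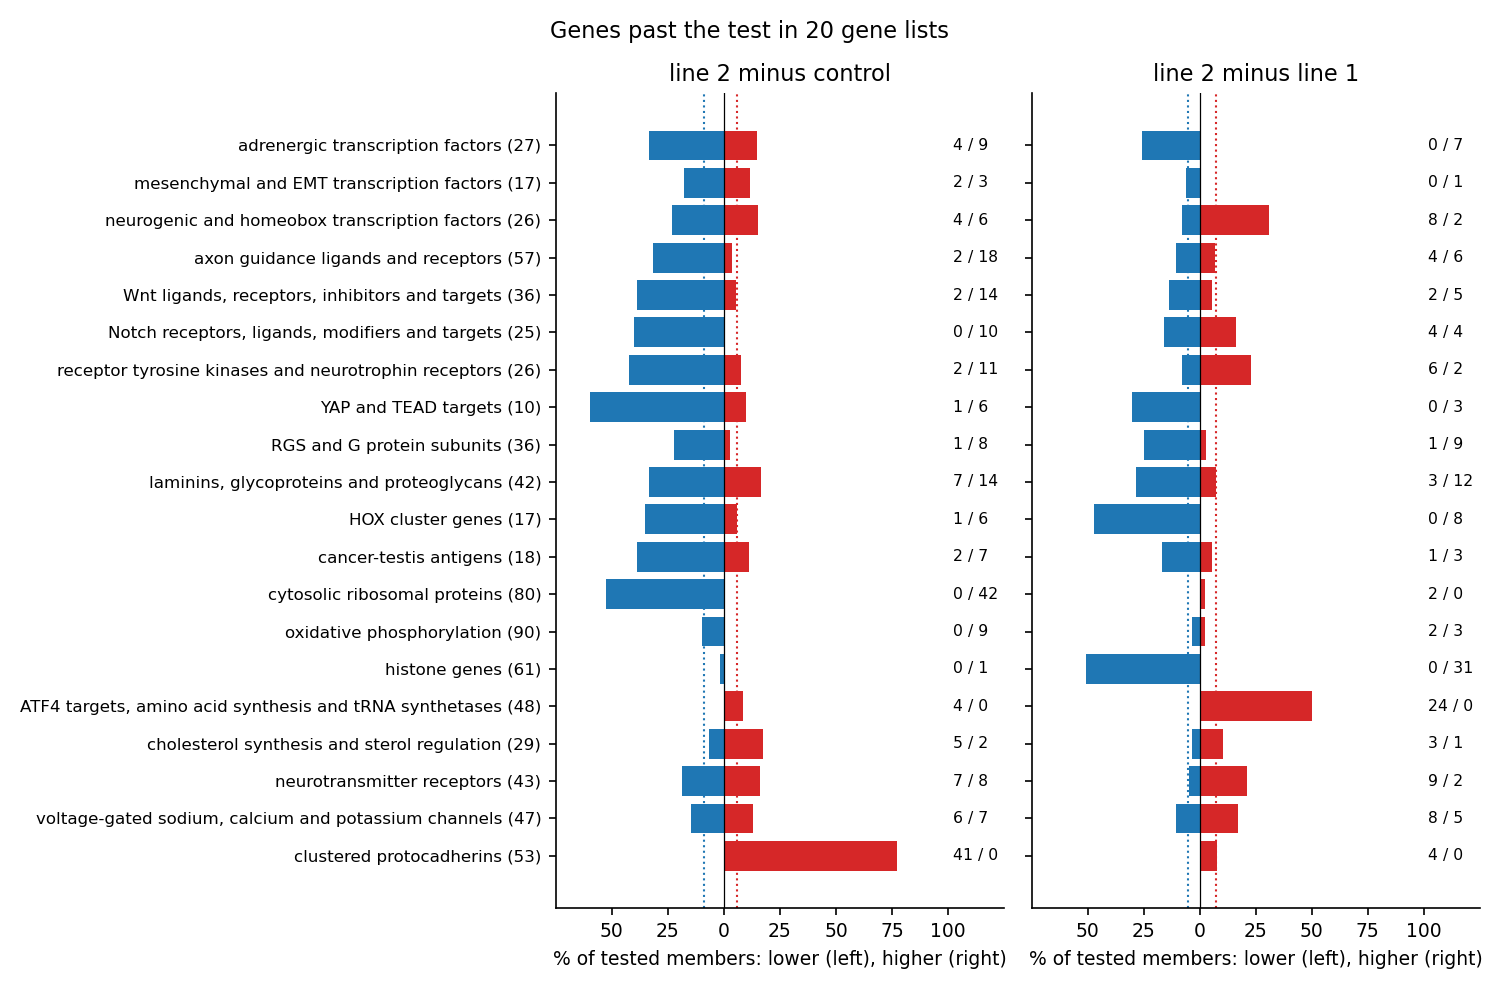
Share of tested members (x axis, percent) past the test in 20 gene lists, lower to the left in blue and higher to the right in red, for line 2 minus control (left panel) and line 2 minus line 1 (right panel); dotted lines are the shares among all genes (5.63% and 8.75%; 7.3% and 5.42%) and the numbers at the right are members higher and lower. Against control 41 clustered protocadherins were higher and 42 ribosomal proteins lower, and against line 1 24 ATF4 targets were higher and 31 histone genes lower.

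Small shifts of line 2 ran along stretches of 3 chromosomes. Gene order was taken from RefSeq for 13129 of the tested genes (89.1%), and medians were formed over 238 windows of up to 40 neighbouring genes with at least 3 RPKM, a division chosen after the data were seen and given without a test. In 15 windows the median of line 2 minus control was above 0.25 and in 12 below -0.25. From DEDD to SH3BP5L on the long arm of chromosome 1, 248 of 280 genes were below 0 (88.6%, against 46.7% of all 9687 genes placed) with a median of -0.36, and 65 fell and 3 rose. The SMARTer and KAPA pairs gave -0.37 and -0.36. Line 1 had a median of 0.22 over the same genes, and 133 of them were lower in line 2 than in line 1 and 6 higher.

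Before the stretch from DEDD on chromosome 1 lies a window of 40 genes, UBQLN4 to NIT1, with a median of 0.11 (2 rose and 5 fell). Before that window, from RBM8A to SSR2, 103 of 120 genes were above 0, with a median of 0.31 (0.36 and 0.30 in the SMARTer and KAPA pairs), and line 1 had a median of -0.02. On chromosome 6 the genes from EXOC2 to HMGN3 had a median of 0.34 (0.38 and 0.30), 195 of 240 were above 0, and line 1 had a median of -0.17. In the remaining 180 genes of chromosome 6 the median was 0.04. In the RBM8A and EXOC2 stretches more genes rose than fell, 26 against 2 and 49 against 5. On chromosome 20 the genes from NAPB to TPD52L2 had a median of -0.28 (-0.28 and -0.30), 165 of 200 were below 0 and 54 fell against 2 that rose. Here line 1 had a median of -0.24. No DNA copy number was measured in the data analysed here, and what lies behind these shifts was not tested.

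**Figure D5:**
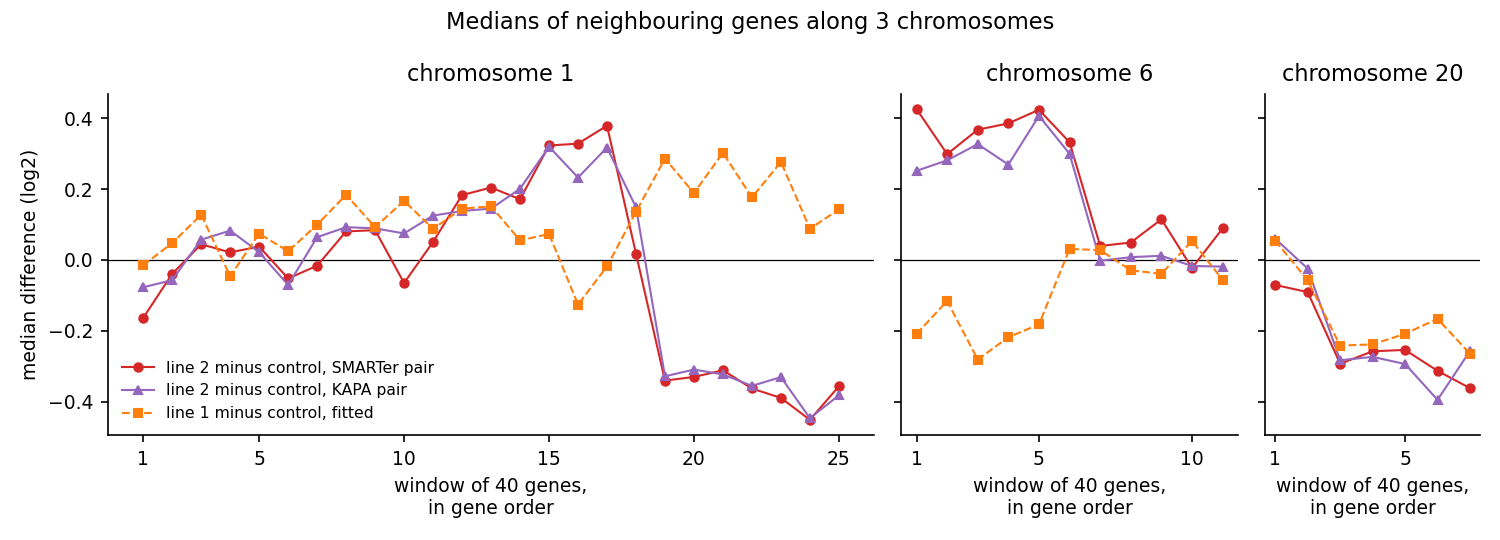
Median log2 difference (y axis) over windows of 40 neighbouring genes in gene order (x axis) on chromosomes 1, 6 and 20; red circles and purple triangles are line 2 minus control in the SMARTer and KAPA pairs, orange squares the fitted difference of line 1 from control. Line 2 falls to between -0.31 and -0.45 in the last 7 windows of chromosome 1 and lies at 0.25 to 0.43 in the first 6 of chromosome 6, alike in both kits and away from line 1, whereas on chromosome 20 the lines run together.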

How the data were processed

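Single-end RNA-seq of 75 bases was made from NGP cultures with a SMARTer or a KAPA kit, per the labels' protocols, which name both poly(A) RNA and removal of ribosomal RNA. The aligner was HISAT2 2.1.0 and the build hg19, per the submitters' processing notes. No source used here names the counter, the strand setting or the gene annotation. The authors deposited per library a raw count per entry and an RPKM, which equals that count over the entry's length and the library's total within 0.000501%. Totals ran from 24445301 to 43644361.

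Entries averaging 0.5 RPKM or more over control and line 2 were tested on the deposited counts with edgeR 4.0.16 (R 4.3.3): TMM scaling, quasi-likelihood test, 6 libraries of control, line 1 and line 2, group and kit as terms, and Benjamini-Hochberg adjustment at 0.05. The kit is the replicate number of the labels and pairs the libraries. Errors after ± are standard errors. Both contrasts share libraries. DESeq2 1.42.0 and limma 3.58.1 on log2 RPKM with a pseudocount of 1 or 0.1, other scalings and filters and fits without each library were the alternatives. In data simulated for line 2 minus control (14736 genes), 30.8%, 87.9% and 97.1% of changes of 0.5, 1 and 2 on the log2 scale were recovered. Every simulated gene had the same dispersion, 0.01. The spread of the real genes was not simulated, so these shares do not give the recovery in the real data. Folds of genes with few counts are ratios with 95% Clopper-Pearson intervals or, against a group with no counts, lower bounds from a floor of 3 counts per group.

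Members and lists were chosen with earlier results of these data known. Named genes are ARID1A, the 12 largest changes in each direction, the 12 with the largest changes against both control and line 1, the 6 largest with at least 50 RPKM, list members with the smallest p, and genes without counts in one group; HAND2 and GATA3 were added as lineage markers. Some genes that this rule selects are not reported here. Gene order came from RefSeq, with no coordinates.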

Additional observations from a re-analysis of the deposited data

Results flagged for a closer look

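Genes called in opposite directions against control in the 2 null lines were listed with the difference of line 2 from line 1 itself, tested with edgeR's quasi-likelihood test on the log2 scale. HS3ST4 and NLRP2 were 8.62 and 9.13 higher in line 2, and CHAC1, a glutathione-degrading ATF4 target, was 2.30 higher. The membrane and growth factor genes PMP22 and IGFBP4 gave -4.58 and -2.83, and the sympathetic factors EYA1 and HAND1 -2.93 and -2.00. COL1A1 gave -2.77 and S100A11 -6.50. The posterior HOX genes HOXD13, HOXD10 and HOXD11 gave -2.44, -2.63 and -2.775. The cancer-testis antigen MAGEC1 gave -2.58, and RGS5, a regulator of G protein signalling in pericytes, -5.27. The calls of line 2 against control behind this list were lost without any 1 of the 4 control and line 2 libraries for HAND1, CHAC1 and HOXD11 (adjusted p = 0.047, 0.041 and 0.037 with all), without the SMARTer control or either line 2 library for HOXD10, without either KAPA library for EYA1 and without the SMARTer control for HOXD13. The adjusted p of the line 2 minus line 1 differences was 0.00033 for HS3ST4, 0.00022 for NLRP2, 0.00022 for PMP22, 0.0026 for HAND1, 0.00072 for HOXD13 and 0.0055 for CHAC1.

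The single library of the heterozygous line enters no comparison. Some genes named for the largest changes of line 2 had at least 5 RPKM there and more than 2 times the higher control value. Among them, ADCYAP1 was at 16.5 RPKM against 0.136 and 0.0242 in control. TXLNB was at 8.01 against 2.57 and 0.777 and CPXM1 at 27.9 against 9.14 and 4.24. IGFBP3, described above among the abundant genes, met the same rule. No replicate of that line is at hand.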

How the results depend on the processing

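The count of calls depended most on the kit term and on single libraries. Without the replicate block for kit, 144 genes were higher and 406 lower than control, 214 and 172 than line 1, and 36 and 103 than both, and ARID1A was at -0.70 with an adjusted p of 0.0831. In the fit of 4 libraries with the replicate block, 1673 were higher and 2036 lower than control. Leaving out 1 library gave 133 to 1680 genes higher and 337 to 2023 lower than control, 397 to 1264 and 314 to 1024 against line 1, and 54 to 504 and 140 to 598 against both, with ARID1A at -0.72 to -0.70; the upper ends came without a line 1 library. By limma, 322 genes were higher and 248 lower than both with a pseudocount of 1, 287 and 297 with 0.1, and 274 and 278 after quantile normalization, so the excess of lower genes (427 against 314) was reversed or nearly gone. RLE scaling, DESeq2, the filters and leaving out ribosomal RNA entries kept each of these counts within 1.5 times and ARID1A past the threshold. No named gene past the threshold against control changed sign there. Each group has 2 libraries in separate kits, so the kit and the repeat cannot be told apart. The main fit has 2 residual degrees of freedom. Changes of 0.5 on the log2 scale were mostly missed in data simulated with a dispersion of 0.01.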
